A study of Mus musculus with 8 samples.

Results

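The nuclear factor I family comprises Nfia, Nfib, Nfic and Nfix, which were chosen by gene symbol in the tables of both experiments. The 4 genes were found among 18904 genes in the Meis1 table and among 17348 genes in the Prep1 table. The 8 RNA-seq libraries came from whole embryos of mouse strain C57BL/6, taken on embryonic day 11.5. The Meis1 experiment holds 3 libraries labelled Meis1 knockout (KO) and 3 of their wild-type (WT) littermates, and the Prep1 experiment holds 1 library of embryos labelled Prep1 hypomorphic and 1 of its WT littermates. Meis1 and Prep1 (listed as Pknox1) encode homeobox transcription factors of the TALE class, and a hypomorphic allele is one with reduced function. The alleles are not described further in the sources used here, nor is it given whether a library holds 1 embryo or several. Which libraries share a litter or a batch is not given either. The family was picked with earlier results of these data known. The group means, within-group variance ratios and counts that led to it are the values reported here. They are therefore given as a description, without tests of the 4 genes.

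Nuclear factor I proteins bind DNA as dimers at a palindrome of TTGGC and GCCAA, and act as activators or repressors depending on the gene. In the developing brain and spinal cord, Nfia and Nfib come on in ventricular zone progenitors as neuron production gives way to glial production. Nfix is known from skeletal muscle, where it takes part in the switch from the embryonic to the fetal programme, and from neural stem cells. Nfic is broadly expressed and is best known from the formation of tooth roots. As a group these factors mark later stages of several lineages, whereas the RNA-binding proteins Lin28a and Lin28b mark early stages and block the maturation of the let-7 microRNA.

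The Meis1 table gives group means only, and the whole counts behind them were worked back for each library. Letters a to c name the libraries of a group by rising total count, since they cannot be tied to single samples. Totals ran from 4248755 to 6230893 counts in the Meis1 libraries and were 4000984 (WT) and 5893401 (hypomorph) in the Prep1 libraries. The Meis1 totals leave out some very abundant genes whose counts could not be worked back. No gene was taken out of the Prep1 totals. Levels are in CPM, the counts relative to library size as scaled by the TMM method, separately in each experiment. Pknox1 had 129 counts in the Prep1 WT library and 14 in the hypomorph, a log2 ratio of -3.58. Meis1 read 92.2, 87.7 and 112 CPM across WT a to c and 86.2, 67.9 and 70.7 CPM across KO a to c, a log2 change of -0.38 (SE 0.16), in a count over the whole gene that leaves the deleted part unchecked. KO library a stood apart in markers of low oxygen, whose summed level over 5 genes was 4082 CPM there against 814 to 1163 CPM in the other 5 Meis1 libraries.

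On mm9, Nfia spans 97439425 to 97868605 and Nfib 81936077 to 82351654, both on chromosome 4. Nfic spans 80858931 to 80893750 on chromosome 10, and Nfix spans 87223775 to 87324243 on chromosome 8. Promoter windows of 250 bases before and 50 bases after the annotated start were taken from RefSeq on GRCm38.p6, where 3 of the 4 genes matched (Nfia, Nfic and Nfix, the last with 4 starts). The windows are shown because Nfia and Nfix were high and low in the same libraries, while Nfic varied less, with CG dinucleotides in capitals. They lie at chr4:97581693-97581992 (plus strand), at chr8:84780033-84780332 (minus strand, the first of the Nfix starts) and at chr10:81427124-81427423 (minus strand).
Nfia: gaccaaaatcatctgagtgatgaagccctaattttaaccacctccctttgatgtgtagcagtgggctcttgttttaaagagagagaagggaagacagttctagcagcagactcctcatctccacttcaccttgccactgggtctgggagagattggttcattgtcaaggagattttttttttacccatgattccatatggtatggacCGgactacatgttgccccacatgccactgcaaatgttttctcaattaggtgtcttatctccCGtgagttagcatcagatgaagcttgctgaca
Nfix: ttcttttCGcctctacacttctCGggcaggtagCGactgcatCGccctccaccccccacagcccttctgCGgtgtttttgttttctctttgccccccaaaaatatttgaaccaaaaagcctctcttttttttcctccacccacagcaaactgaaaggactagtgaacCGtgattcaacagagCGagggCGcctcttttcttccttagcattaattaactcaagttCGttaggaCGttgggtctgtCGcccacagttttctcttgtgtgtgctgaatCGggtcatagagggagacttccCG
Nfic: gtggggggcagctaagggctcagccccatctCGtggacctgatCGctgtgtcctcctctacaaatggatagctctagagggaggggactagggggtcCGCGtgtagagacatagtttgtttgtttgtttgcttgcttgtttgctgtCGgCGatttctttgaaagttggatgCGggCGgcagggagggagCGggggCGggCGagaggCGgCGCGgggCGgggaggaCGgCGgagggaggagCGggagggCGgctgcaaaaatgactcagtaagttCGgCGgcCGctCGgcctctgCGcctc
The Nfia window held 2 CG dinucleotides, the Nfix window 13 and the Nfic window 24, against a median of 7 over all 32851 mouse promoter windows. The windows at the other 3 Nfix starts held 4, 9 and 2. Both strands of all 6 windows were searched for TGACAG, the core site of Meis and Prep proteins. None of the 6 windows held these letters, which occur in 19.2% of all windows. The nuclear factor I palindrome, TTGGC and GCCAA with any 5 bases between them (0.0365% of all windows), and the letters TTGGCA (14.1%), whose first bases are an arm of it, were not found in them either.

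In the Meis1 experiment the family varied more among libraries of 1 genotype than between genotypes. Nfix, the lowest of the 4, ran from 3.07 to 22.6 CPM among WT libraries alone. WT library a was the lowest and WT library b the highest of the WT libraries for all 4 members, as for 24.8% of the 14337 gene symbols tested. In the Prep1 experiment the hypomorph library was above its WT library for all 4, as for 50.4% of genes with at least 20 counts. In plain CPM it was above by 4.30-fold for Nfix and by 1.72-fold and 1.76-fold for Nfia and Nfib.

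**Figure D1:**
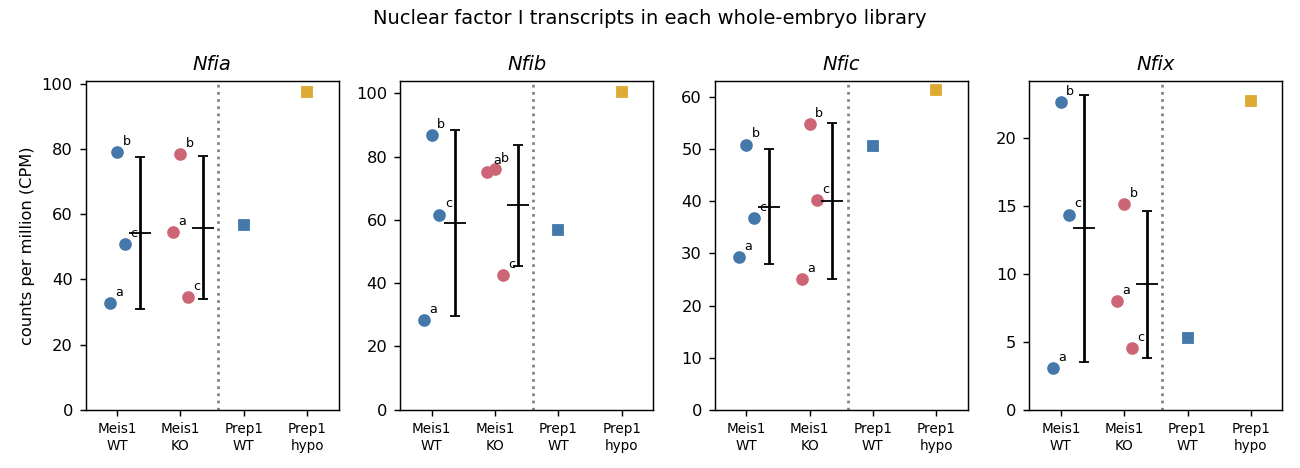
Level of each family member (CPM) in the 8 libraries, with circles for single Meis1 libraries (letters a to c), black bars for the mean ± SD of 3 libraries and squares for the single Prep1 libraries. WT a is the lowest and WT b the highest WT library in every panel, an order found in 24.8% of all gene symbols tested. The Meis1 groups overlap. The Prep1 hypomorph lies above its WT library, as in 50.4% of genes with at least 20 counts. The dotted line parts experiments that were scaled separately.

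For Nfia the WT libraries a to c gave 32.8, 79.1 and 50.7 CPM, from 139, 367 and 318 counts. The KO libraries a to c gave 54.4, 78.4 and 34.5 CPM, from 224, 373 and 168 counts. Each group thus held a high, a middle and a low library at similar levels, and the groups overlapped almost fully. The WT mean was 54.2 ± 23.4 CPM and the KO mean 55.8 ± 22 CPM (SD, n = 3 each), and the fitted log2 change from WT to KO was 0.04 (standard error, SE, 0.34).

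Nfib, the partner of Nfia in glial development and also needed for lung maturation, read 28.3, 86.9 and 61.7 CPM across WT a to c, from 120, 403 and 387 counts. Across KO a to c it read 75.3, 76.1 and 42.6 CPM, from 310, 362 and 207 counts. The KO libraries lay within the WT range, with KO a and b close together and KO c below them. The WT mean was 59 ± 29.4 CPM and the KO mean 64.6 ± 19.1 CPM (SD, n = 3 each), with a fitted log2 change of 0.13 (SE 0.35).

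Nfic read 29.3, 50.9 and 36.8 CPM across WT a to c (124, 236 and 231 counts), and 25, 54.9 and 40.3 CPM across KO a to c (103, 261 and 196 counts). WT a and KO a were the lowest libraries of their groups, so that for this member KO a and not KO c was low. The WT mean was 39 ± 11 CPM and the KO mean 40.1 ± 14.9 CPM (SD, n = 3 each), with a fitted log2 change of 0.04 (SE 0.28).

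For Nfix the WT libraries a to c held 13, 105 and 90 counts, or 3.07, 22.6 and 14.3 CPM. The KO libraries a to c held 33, 72 and 22 counts, or 8.01, 15.1 and 4.52 CPM. The highest and the lowest of these values were both WT, and the groups overlapped. The WT mean was 13.3 ± 9.82 CPM and the KO mean 9.22 ± 5.41 CPM (SD, n = 3 each), with a fitted log2 change of -0.54 (SE 0.59).

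The size and the direction of these differences turned on single libraries for each of the 4 members. Without WT b the log2 difference of Nfix was 0.03, and without KO b it was -1.11. That of Nfia lay between -0.29 (without KO b) and 0.41 (without WT b), that of Nfib between -0.20 (without WT a) and 0.50 (without WT b), and that of Nfic between -0.25 (without KO b) and 0.29 (without KO a). Without KO a, the library with high low-oxygen markers, Nfia, Nfib and Nfix stood at 0.06, 0.005 and -0.45. Across all genes, edgeR's quasi-likelihood fit placed 0 of 14438 genes (0%) under a false discovery rate (FDR) of 0.05, and none of the 4 members. At an unadjusted p under 0.05 there were 226 genes (1.57%), and DESeq2 called 1 gene. The WT and KO groups did not overlap, with KO higher, in 3.01% of genes and, with KO lower, in 2.67%, and no member was among these. In the authors' deposited table the log2 ratios were 0.04 for both Nfia and Nfic, 0.14 for Nfib and -0.53 for Nfix, with an adjusted p of 1 for each.

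The spread within groups was wide for all 4 members. WT b exceeded WT a by 7.38-fold for Nfix (95% counting interval 4.13 to 14.3), by 3.07-fold for Nfib (2.50 to 3.79), by 2.41-fold for Nfia (1.98 to 2.95) and by 1.74-fold for Nfic (1.39 to 2.18). Among KO libraries the highest exceeded the lowest by 3.35-fold for Nfix, 2.27-fold for Nfia, 2.19-fold for Nfic and 1.79-fold for Nfib. The within-group SD on the log2 scale was 1.17 for Nfix, 0.67 for Nfib, 0.61 for Nfia and 0.49 for Nfic. Of genes with a mean CPM within 2-fold of the member's, 0.995% had a larger SD than Nfix, 1.34% than Nfib, 1.87% than Nfia and 4.78% than Nfic. The authors' deposited table gives, for each group, a ratio of the variance to the one fitted at that mean. In WT it was 6.72 for Nfix, 6.69 for Nfib, 5 for Nfia and 1.78 for Nfic, where the median over genes with a mean of at least 20 was 0.36. In KO it was 2.08, 2.09, 3.38 and 2.61 in the same order, against a median of 0.37. The choice of the family used these variance ratios. Its place among other genes by spread is therefore a description and not independent evidence.

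Within a library, the make-up of the family differed as well, and shares of counts in 1 library need no scaling between libraries. Nfix made up 3.28%, 9.45% and 8.77% of the family's counts across WT a to c, and 4.93%, 6.74% and 3.71% across KO a to c. For each 100 Nfia counts there were 9.35 Nfix counts in WT a but 28.6 and 28.3 in WT b and c, and 14.7, 19.3 and 13.1 across KO a to c. The libraries with the least Nfia thus had the least Nfix relative to it in each group. The share of Nfia itself was steadier, between 28.3% (KO c) and 35.1% (WT a). Nfic took 15.4% in KO a and 33.1% in KO c, with Nfib highest, at 46.3%, in KO a.

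**Figure D2:**
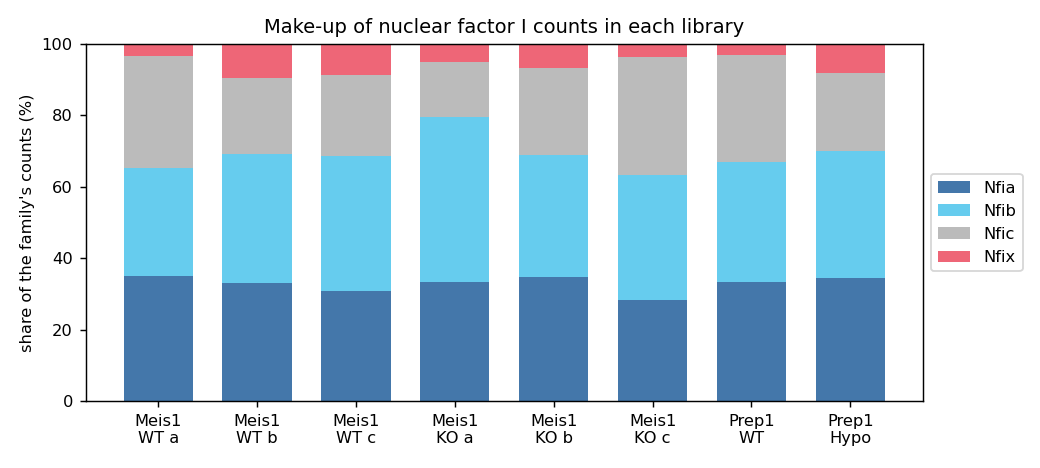
Share of the family's counts (%) that each member holds in the 6 Meis1 and the 2 Prep1 libraries, as stacked bars. Nfia stays between 28.3% and 35.1%, whereas Nfix goes from 3.12% in the Prep1 WT library to 9.45% in Meis1 WT b.

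Levels can be compared between members only per length. Per kilobase of all exon bases in GENCODE M21 (GRCm38, a later annotation than the one counted), Nfic read 5.88 ± 1.65, Nfia 4.98 ± 2.14, Nfib 3.94 ± 1.96 and Nfix 1.82 ± 1.34 CPM (SD, n = 3) in Meis1 WT. Nfic, Nfia and Nfib lay within each other's spread, and their order turned when the longest transcript was used as the length, with Nfib then at 6.47, Nfic at 6.25 and Nfia at 5.69 CPM per kilobase. Nfix was the lowest member by either length, at 2.44 CPM per kilobase by the longest transcript. In KO, Nfix read 1.25 ± 0.74 CPM per kilobase of exon bases (SD, n = 3), again below the other 3 members.

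In the Prep1 experiment, with 1 library per genotype and thus no replicate check, Nfix had 21 counts in WT and 135 in the hypomorph, or 5.29 and 22.7 CPM. Its log2 ratio, after a prior count of 2, was 2.02, with a 95% exact interval of 1.43 to 2.84 that covers counting error only. Of the 13780 genes reaching 20 counts in the library where they were higher, 15 had a higher ratio. The counts behind the Nfix value are few in WT, which the width of the interval shows.

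Nfib had 226 and 596 counts, or 56.9 and 100.3 CPM, a log2 ratio of 0.81 (0.59 to 1.04). Nfia had 225 and 579 counts, or 56.7 and 97.5 CPM, a log2 ratio of 0.78 (0.56 to 1.01). These ratios lay close together, and 3.48% and 3.86% of genes had a higher one. Nfic had 201 and 364 counts, or 50.6 and 61.3 CPM, a log2 ratio of 0.27 (0.02 to 0.53), which 18.8% of genes exceeded. Past 2-fold were 277 genes higher in the hypomorph (2.01%) and 64 lower (0.464%), and of the family only Nfix, with 1 of 4 members; the choice of the family used this contrast. The authors' deposited table gives log2 ratios of 2.68 for Nfix, 1.40 for Nfib, 1.36 for Nfia and 0.86 for Nfic, which are not scaled for the deeper hypomorph library. Nfix made up 3.12% of the family's counts in the Prep1 WT library and 8.06% in the hypomorph, with 9.33 and 23.3 Nfix counts for each 100 of Nfia.

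The experiments were scaled separately, and only the Meis1 totals leave out some very abundant genes, so their CPM values have no common base. Set beside the Meis1 libraries, the Prep1 WT library was low in Nfix. Its 5.29 CPM lay between KO c (4.52 CPM) and KO a (8.01 CPM), and the hypomorph, at 22.7 CPM, was level with WT b (22.6 CPM). For Nfia, Nfib and Nfic the hypomorph was above all 6 Meis1 libraries, whose highest values were 79.1, 86.9 and 54.9 CPM. For each member, the fold between Meis1 WT libraries a and b was larger than the fold between hypomorph and WT. As plain ratios of CPM, these folds were 7.38 against 4.30 for Nfix, 3.07 against 1.76 for Nfib, 2.41 against 1.72 for Nfia and 1.74 against 1.21 for Nfic. The measures are unlike, since WT a and b were the lowest and highest of 3 WT libraries for each member. The Prep1 pair was fixed by the design, so the comparison favours the larger Meis1 fold.

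Several Lin28 and let-7 timing genes were high in the libraries where the family was low. Of the 10 genes, 9 were highest in WT a and lowest in WT b among WT libraries, as were 24.6% of the 14337 gene symbols tested. Among KO libraries 6 were highest in KO c and lowest in KO b (11.4% of all). Lin28a read 42, 4.96 and 10.2 CPM across WT a to c, and 12.1, 8.41 and 27.1 CPM across KO a to c. It was thus highest in WT a and KO c, where Nfix was lowest, and lowest in WT b, where Nfix was highest. Igdcc3, an immunoglobulin superfamily membrane protein gene, read 241, 27.8 and 46.9 CPM in WT and 77.5, 63.1 and 168 CPM in KO, in the same order of libraries. Lin28b read 80.2, 18.3 and 30 CPM in WT and 39.8, 26.5 and 58.6 CPM in KO, and Trim71, a ubiquitin ligase gene of early embryos, had its highest values in the same libraries, at 20.1 CPM (WT a) and 12.7 CPM (KO c). Hmga1, an architectural chromatin protein gene, read 36 CPM in WT b and 38.7 CPM in KO b, against 132 to 181 CPM in the other 4 libraries. Not all members followed. Hmga2 ran only from 515 to 636 CPM, Igf2bp3 was highest of the KO libraries in KO b (256 CPM), and Dis3l2 was lowest of them in KO c (43 CPM) and stood at 0.19 in the Prep1 hypomorph on the log2 scale.

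Against the WT mean, the median log2 level over the 10 timing genes was 0.67, -0.66 and -0.13 across WT a to c and 0.10, -0.09 and 0.45 across KO a to c. Between the genotypes these genes lay on both sides, with 4 above and 6 below 0 and a median log2 difference of -0.02, as against a median of -0.0006 over all genes. Of all genes tested, 49.9% were above 0. None of the 10 passed FDR 0.05, and their groups overlapped. The median was 0.32 without WT a and -0.26 without WT b, the range over the 6 libraries left out in turn. In the Prep1 libraries 9 of 10 were below 0 and 4 were more than 2-fold lower in the hypomorph, with a median log2 ratio of -0.73 against 0.003 over all genes. Of all genes with at least 20 counts, 50.4% were above 0 and 0.464% were past 2-fold lower. Lin28a had 163 counts in WT and 64 in the hypomorph, a log2 ratio of -1.89 (-2.37 to -1.50), Igdcc3 stood at -1.56, Hmga1 at -1.20 and Lin28b at -1.15. Earlier results of these data had shown Lin28a, Igdcc3 and Hmga1, so their place in this list is not independent evidence.

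**Figure D3:**
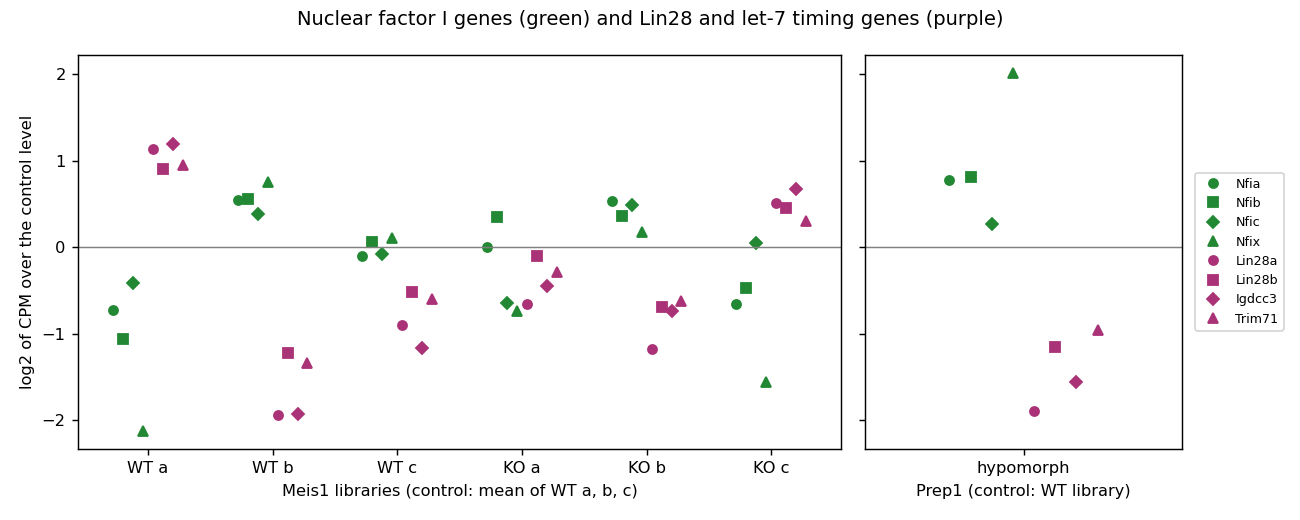
Log2 of the CPM over the control level for the 4 family members (green) and for Lin28a, Lin28b, Igdcc3 and Trim71 (purple), over the WT mean in the 6 Meis1 libraries and over the WT library in the Prep1 hypomorph, there after a prior count of 2. The green and purple symbols lie on opposite sides of 0 in WT a, WT b, KO b and, but for Nfic, KO c, and in the hypomorph, where Nfix stands at 2.02 and Lin28a at -1.89. In WT c and KO a they are mixed. The 4 timing genes were picked from the 10 listed, Lin28b and Trim71 after their values were seen. Of those not shown, Hmga2, Igf2bp2, Igf2bp3 and Dis3l2 were above their WT mean in KO b, and Hmga1 and Igf2bp1 below it. Hmga2 was also above it in WT b.

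Of the 13 myogenic switch genes tested, which include muscle determination factors and contractile genes, 4 were lowest in WT a and highest in WT b and KO b, as were 12.1% of all gene symbols tested. These were Myod1, Myog, Myh3 and Nfatc4. Myod1, the muscle determination factor, read 0.94, 12.5 and 8.29 CPM across WT a to c, and 3.16, 15.8 and 4.11 CPM across KO a to c. Myog, which acts after it, read 8.49, 34.1 and 24.2 CPM in WT and 8.98, 30.1 and 13.6 CPM in KO. Both genes were low in WT a, KO a and KO c and high in WT b, WT c and KO b, as Nfix was, though their lowest KO library was KO a and that of Nfix KO c. Pax3 and Pax7, factors of muscle progenitors, were highest of the WT libraries in WT a instead, at 31.8 and 14.2 CPM. Myf5, another determination factor, ran only from 4.37 to 6.22 CPM over the 6 libraries. Myh7, a slow myosin gene that Nfix represses in fetal muscle, read 343, 232 and 293 CPM in WT and 379, 293 and 339 CPM in KO, with its lowest value in WT b. Which tissue of the whole embryo gave these Myh7 reads was not tested. In the KO comparison 7 of 13 tested genes were above 0 (49.9% of all genes) and 6 below, the median was 0.08, and 0 passed FDR 0.05. In the Prep1 libraries Myod1 stood at 1.06 and Myog at 0.69 on the log2 scale, while Myh7 was at -0.72 and Eno3, a muscle enolase gene, at -1.08. The list there had 9 of 13 genes above 0 (50.4% of all genes) and a median log2 ratio of 0.13. Past 2-fold were 1 gene higher and 1 lower, against 2.01% and 0.464% of all genes.

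Of the glial genes, the astrocyte genes Gfap and Aqp4 were at most 1.75 CPM in any Meis1 library. Fabp7, a fatty acid binding protein gene of radial glia, read 65.6, 223 and 123 CPM across WT a to c and 88.6, 117 and 97 CPM across KO a to c, low in WT a and high in WT b as the family was. Of the 19 glial genes tested, 7 were lowest in WT a and highest in WT b among WT libraries, against 24.8% of all gene symbols tested. Sox9, which acts upstream of Nfia in the spinal cord, ran only from 131 to 184 CPM. In the KO comparison 12 of 19 tested genes were above 0 (49.9% of all genes), with a median of 0.16, and 0 passed FDR 0.05. Aldoc, the brain aldolase gene, had the smallest p (log2 difference 1.38, SE 0.50, adjusted p = 0.9999 in edgeR's quasi-likelihood test), with 13.4 CPM in KO a and at most 5.76 CPM elsewhere. In the Prep1 libraries 12 of 19 were above 0 (50.4% of all genes), with a median of 0.17. Past 2-fold higher were 2 genes (2.01% of all genes), both at low counts. These were Aldh1l1, an astrocyte enzyme gene with 7 and 31 counts, and Mmd2, an Nfia target in glial precursors with 6 and 23 counts. Better counted members lay on both sides of 0. Tnc, an extracellular matrix gene, stood at 0.63 (0.41 to 0.86), and Sparcl1 at 0.54 (0.33 to 0.76). Below 0 were Hes5 at -0.40 (-0.65 to -0.16), Id3 at -0.22 (-0.41 to -0.03) and Notch1 at -0.15 (-0.27 to -0.03).

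**Figure D4:**
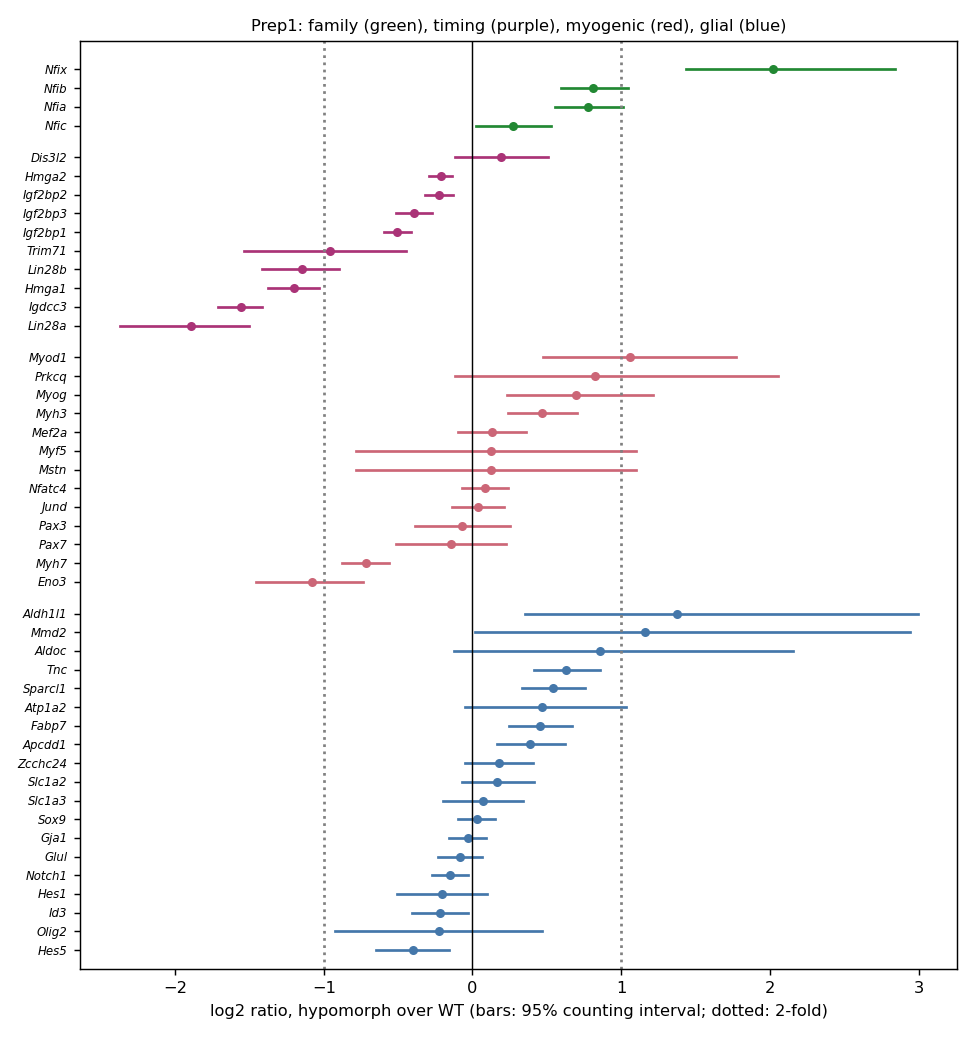
Log2 ratio of the Prep1 hypomorph over WT (x axis) for the family (green) and for timing (purple), myogenic (red) and glial (blue) genes that reach 20 counts in their higher library, with bars for the 95% counting interval and dotted lines at 2-fold. Nfix stands furthest right of the family at 2.02, and Lin28a furthest left of all at -1.89.

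Transcription factors that mark successive waves of neurons lay mostly a little higher in KO, with none past the test. The Onecut genes mark early-born neurons and Zfhx3, Zfhx4, Neurod2 and Neurod6 later ones. Onecut2 read 29.3, 14 and 16.7 CPM across WT a to c and 29.9, 18.1 and 28.2 CPM across KO a to c, lowest in WT b and KO b, where Nfia was highest. Onecut3 was instead highest of the KO libraries in KO b (6.94 CPM). Pou2f2, also of this list, was highest in WT b (6.25 CPM) and KO b (6.94 CPM). Of the 8 genes tested, 2 were highest in WT a and lowest in WT b, as were 24.6% of all gene symbols tested. Neurod6 was at 0 to 2.80 CPM, with its 2.80 CPM in WT b. Over the list 7 of 8 tested genes were above 0 in KO (49.9% of all genes), with a median of 0.22. None passed FDR 0.05, and without KO a the median was 0.11. In the Prep1 libraries 5 of 8 were above 0 (50.4% of all genes), the median was 0.11, and 0 passed 2-fold, with Zfhx4 at 0.36 and Onecut3 at -0.49. Among partners and upstream regulators, Pax6, Sox2 and Pou3f2 stood at -0.47, -0.35 and -0.26 in the hypomorph. The chromatin genes Smarca4 and Ezh2 were at -0.16 and -0.08 there. This list of 6 had a median of -0.21 in the hypomorph, with 0 past 2-fold, and of 0.12 in KO, where 0 passed FDR 0.05.

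In whole embryos, fewer cells of a type and less RNA per cell cannot be told apart, so marker levels are given beside the family's. Summed over 6 mesenchyme markers, the level was 1541, 2723 and 2246 CPM across WT a to c and 2172, 2464 and 1773 CPM across KO a to c, low in WT a and KO c as Nfia was. Most of each sum was collagen, from Col3a1 and Col1a1, and Col1a1 alone read 246, 664 and 469 CPM in WT. Tbx5, unlike the sum, was highest of the KO libraries in KO c (20.2 CPM). Summed over 8 of 9 neuron markers (Map2 was not analysed here), the level ran from 1196 to 1476 CPM in WT and from 1235 to 1785 CPM in KO. Neural progenitor markers, with 6 of 7 analysed (not Sox1), ran from 859 to 1130 CPM in WT and from 583 to 1142 CPM in KO. In the Prep1 libraries the mesenchyme sum was 1568 CPM in WT and 2114 CPM in the hypomorph. The log2 ratios behind it were 0.81 for Col1a1, 0.43 for Col3a1, 0.24 for Pdgfra and 0.08 for Prrx1. Twist1 and Tbx5 stood at -0.12 and -0.15. The sum of neuron markers was 1807 and 1959 CPM there, and that of progenitor markers 1453 and 1190 CPM. The 3 cartilage markers analysed, of 4, summed to 401 to 559 CPM in WT and 407 to 656 CPM in KO, and to 624 CPM and 684 CPM in the Prep1 WT and hypomorph libraries. The 4 skeletal muscle markers summed to 396 to 447 CPM in WT and 414 to 446 CPM in KO, and to 273 and 243 CPM in the Prep1 libraries. Most of each sum was Actc1, at 316 to 388 CPM in WT, 331 to 398 CPM in KO, and 227 and 179 CPM in Prep1. The median log2 level of these 4 markers against the WT mean was -0.65 in WT a and 0.52 in WT b. In the hypomorph 3 of them were above 0 and 1 below, with a median log2 ratio of 0.40. The 4 liver markers summed to 91.8, 299.6 and 387 CPM across WT a to c, to 123 to 183 CPM in KO, and to 142 CPM (Prep1 WT) and 408 CPM (hypomorph). The 4 erythroid markers summed to 479 to 749 CPM in WT, to 572 to 1284 CPM in KO, and to 268 CPM (Prep1 WT) and 394 CPM (hypomorph). The part of these cell types in the family's values was not tested.

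Genes that overlap the family were counted too, and whether the counting used strand is not given. E130114P18Rik, on the strand opposite to Nfia, shares 5345 bases of its span with it and held 9, 36 and 39 counts across WT a to c and 17, 33 and 14 across KO a to c, the order of Nfia within KO. G430095P16Rik lies inside Nfix on the opposite strand and had 0, 10 and 14 counts in WT, 11, 11 and 12 in KO, and 1 and 17 in the Prep1 WT and hypomorph libraries. Lyl1, a blood and endothelial transcription factor gene, also lies inside the Nfix span on the opposite strand. Lyl1 had 38, 28 and 71 counts in WT and 52, 40 and 56 in KO, and 28 and 54 in the Prep1 WT and hypomorph libraries. In WT a, KO a, KO c and Prep1 WT it had more counts than Nfix, which had 13, 33, 22 and 21. Gm11266, inside Nfib, and Gm16104, inside Nfic, had at most 17 counts in any of the 8 libraries. How many reads such pairs share was not tested.

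For each member, the genes with the most similar pattern were taken as those with the smallest root mean square difference of centred log2 CPM over the 6 Meis1 libraries. For Nfix these were Egfl6 (0.17), Prelp (0.18) and Aqp1 (0.24), which encode an extracellular matrix protein, a matrix proteoglycan and a water channel. Egfl6 read 4.72, 28.2 and 19.8 CPM across WT a to c and 8.5, 17.2 and 6.37 CPM across KO a to c. In the Prep1 libraries, which the measure did not use, Egfl6, Prelp and Aqp1 had log2 ratios of 1.20, 1.75 and 0.88. These rest on few counts, 18 and 65, 7 and 41, and 17 and 49, with wide counting intervals (0.50 to 2.11, 0.80 to 3.37 and 0.12 to 1.83). For Nfia the nearest genes were Cbln2, Ltbp3 and Gpm6a, at 0.10 to 0.11. Their Prep1 log2 ratios were 1.36 (from 5 and 23 counts), 0.92 and 0.68. For Nfib they were Col16a1 (0.05), Resp18 (0.07) and Tmem229a (0.12), and for Nfic Adam12 (0.05), Nol3 (0.06) and Lrrc4b (0.07). The Prep1 ratios of the Nfib set were uneven, with Col16a1 at -0.17, Resp18 at 1.92 from 2 and 18 counts, and Tmem229a at -0.15. Those of the Nfic set were 0.37, 0.46 and 0.59. Within the family, Nfia and Nfib were the closest pair, 0.23 apart, and Nfic and Nfix the most distant, 0.78 apart. Ranked by nearness among the 14438 genes tested, Nfib was at rank 109 from Nfia, and Nfia at rank 60 from Nfib. Nfix was at rank 13776 from Nfic, and Nfic at rank 1173 from Nfix.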

How the data were processed

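Messenger RNA of 8 whole-embryo libraries was sequenced single-end and expression was estimated with RSEM on mm9, per the labels and the submitters' processing notes. The deposited Meis1 values are a signal, group means of counts over library size factors, with the authors' log2 ratio, fold ratio, p-value and variance ratio. The deposited Prep1 values are estimated counts (expected counts of RSEM), whole numbers with 0 written as 0.1, which was set back to 0. The plan assumed counts per library, so whole counts were worked back from the Meis1 means. For 18896 of 18904 genes in each group, members included, 1 set of 3 counts fitted the printed digits. The 10 genes not settled, all very abundant, were left out. No source used here gives the authors' own filter.

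Meis1 libraries were fitted with edgeR 4.0.16 (TMM, filterByExpr, quasi-likelihood test, Benjamini-Hochberg), with DESeq2 1.42.0 and limma-voom 3.58.1 as alternatives. For Prep1, log2 ratios were taken between TMM-scaled CPM values after adding a prior count of 2, over genes with 20 counts in the higher library. Intervals and ratios of reads cover counting error only. Nothing says that libraries are separate embryos, so SDs and p-values measure the spread between these samples. The recovery and the edgeR step were tested on simulated data. Members, lists and tests were chosen with earlier results of these data known. Named genes are the members, up to 3 per list by smallest p in Meis1 and up to 3 by largest Prep1 ratio with at least 50 counts, and the 3 nearest patterns per member. Lin28b, Trim71, Aldh1l1, Mmd2, Fabp7, Gfap, Aqp4, Sox9, Neurod6, Smarca4, Ezh2, Igf2bp3, Pax3, Pax7, Myf5, Nfatc4 and the overlapping genes were named after their values were seen. The sheets of the authors' selected genes were not used.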

Additional observations from a re-analysis of the deposited data

How the results depend on the processing

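No paired analysis was possible because the labels give no replicate numbers and the recovered libraries cannot be tied to single samples. The log2 differences of the 4 members under other scaling, no filter, DESeq2, limma-voom or the deposited means moved by less than their spread between replicates. Leaving out 1 library gave ranges of -0.29 to 0.41 (Nfia), -0.20 to 0.50 (Nfib), -0.25 to 0.29 (Nfic) and -1.11 to 0.03 (Nfix), and 0 genes past FDR 0.05 each time, while DESeq2 called 1. The list medians lay between 0.11 and 0.24 (neural temporal factors), 0.08 and 0.27 (glial), -0.05 and 0.08 (myogenic), -0.26 and 0.32 (timing) and 0.02 and 0.20 (partners).

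In Prep1, the deposited ratio without scaling gave 1.36 for Nfia, 1.40 for Nfib and 0.86 for Nfic, since the hypomorph library is deeper. It put 1747 genes past 2-fold against 341, and the list medians at 0.70 (neural temporal), 0.75 (glial), 0.71 (myogenic), -0.17 (timing) and 0.37 (partners). Without the filter on low counts 966 genes passed 2-fold, and 146 did with at least 50 counts, where fewer genes are tested. Depth limits Nfix most, with 13 counts in WT a and 21 in Prep1 WT. By length, the order of Nfia, Nfib and Nfic depended on the alternative, added after seeing the data, of using the longest transcript.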
